A study of Rattus norvegicus with 4 samples.

Results

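Mammalian mitochondrial DNA encodes 6 subunits of respiratory chain complexes III and IV and of the ATP synthase, complex V, and their transcripts were examined here in FRT cells. The set was defined by gene ID and by no measured value, but it was chosen with earlier results of these data known. It comprises 6 of the 32754 genes in the count tables. Its members are Cytb of complex III (ENSRNOG00000031766.3), Co1 (ENSRNOG00000034234.3), Co2 (ENSRNOG00000030371.3) and Co3 (ENSRNOG00000030700.3) of complex IV, and Atp6 (ENSRNOG00000031979.3) and Atp8 (ENSRNOG00000033299.3) of complex V. The count tables name genes by ID only. The subunit names are those of the list that defined the set, and they were not checked against sequence or position. All 6 were found in every library, with 1983 to 26299 counts per library, and all 6 passed the filter of 40 counts used for testing.

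FRT is an established epithelial line from the thyroid of the Fischer rat. The series holds a single group of 4 biological replicates, separate preparations of untreated FRT cells grown in a Ham's F12-based medium with serum. No genotype, agent or time was varied, so that the comparisons are between subunits and between preparations. Libraries were made from 100 ng of total RNA with a 3' end kit, in which a transcript gives a tag near its 3' end, and sequenced from 1 end in reads of 100 bases. Thyroid and epithelial markers were not analysed here, because the IDs could not be linked to symbols.

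Complex III passes electrons from ubiquinol to cytochrome c, complex IV passes them on to oxygen, and both pump protons across the inner mitochondrial membrane. Complex V lets the protons flow back and makes ATP. In all 3 complexes the few subunits made from mitochondrial DNA sit in the membrane and are joined by subunits made from nuclear genes. The mitochondrial genes are transcribed as long precursors, which are cut at the tRNAs that lie between most of the genes, and the resulting mRNAs carry short poly(A) tails. Atp8 and Atp6 are an exception, as their reading frames overlap and are carried on a shared mRNA.

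The libraries held 1160202 to 1999175 counts assigned to genes, so that 1 count was worth 0.500 to 0.862 CPM, the count scaled to a common library total. The subunits lay far above the level that a count of 0 would allow, 1.501 to 2.59 CPM. CPM is a share of the library and not an amount per cell. Fewer mitochondrial transcripts per cell and more RNA of other genes cannot be told apart in it. A single gene, ENSRNOG00000043866.1, took 14.3% to 31.9% of the counts. Levels are therefore also given after TMM scaling, which offsets such dominance and multiplied the library totals by 0.889 to 1.14.

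The 6 subunits were among the 17 most abundant genes of the line by mean level. Atp6 was the highest of the set and Co3 the lowest, and their mean levels were 11024 and 2396 CPM. Since the kit is designed to tag transcript ends, levels were not divided by gene length, and no coding lengths were used here. Whether each tag marks a transcript end was not tested. Atp8 shares an mRNA with Atp6 and had 4344 to 12260 counts of its own per library. Levels are therefore read as tags per gene and not as transcript ends.

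Cytb is the membrane subunit of complex III that carries its b-type haems and the sites where ubiquinone is oxidised and reduced. Its level was 1913 CPM in replicate 1, 1262 in replicate 2, 3858 in replicate 3 and 3268 in replicate 4, with a mean of 2575 CPM ± 1196 (SD, n = 4). Replicates 3 and 4 were high and replicates 1 and 2 low. Its place among all genes ordered by abundance ran from 14 in replicate 3 to 34 in replicate 2.

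Of the 3 complex IV subunits, Co1 had the highest mean. Co1 holds the haem and copper centre where oxygen is reduced. It was measured at 5476 CPM in replicate 1, 2097 in replicate 2, 9498 in replicate 3 and 6146 in replicate 4 (mean 5804 CPM ± 3034, SD, n = 4). Replicate 3 lay far above and replicate 2 far below the other libraries, and the SD was 52.3% of the mean, the widest relative spread of the set. Co2 carries the copper centre that takes electrons from cytochrome c. Its levels were 3328, 2309, 5646 and 5610.2 CPM in replicates 1 to 4 (mean 4223 CPM ± 1675, SD, n = 4). For Co2 with deposited totals, replicates 3 and 4 differed by less than counting error. Their ratio was 1.01 (95% counting interval 0.975 to 1.04), and replicates 1 and 2 were lower. After TMM scaling the Co2 ratio of replicate 3 to replicate 4 was 1.21. Co3 completes the core of the enzyme and carries no metal centre. It stood at 2104 CPM in replicate 1, 992 in replicate 2, 3589.9 in replicate 3 and 2900.4 in replicate 4 (mean 2396 CPM ± 1116, SD, n = 4). It was the only subunit of the set below 1000 CPM in any library, and in replicate 2 its place by abundance was 47.

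The complex V subunits were both abundant. Atp6 forms the proton path beside the rotating ring of the enzyme. Its level was 9251 CPM in replicate 1, 6233 in replicate 2, 15743 in replicate 3 and 12869 in replicate 4 (mean 11024 CPM ± 4154, SD, n = 4). It kept place 4 to 6 among all genes in every library. Atp8 is a very short membrane protein of the stator. It was measured at 4276 CPM in replicate 1, 3634 in replicate 2, 7339 in replicate 3 and 3744 in replicate 4 (mean 4748 CPM ± 1750, SD, n = 4). Replicate 3 alone was high for Atp8. With deposited totals, replicate 4, high for Cytb, Co2, Co3 and Atp6, was close to replicate 2 for Atp8. It was at 1.03 times the level of replicate 2 (95% counting interval 0.992 to 1.07), and at 0.804 times after TMM scaling. Atp8 and Atp6 overlap, so reads that cover both genes may be counted for neither. How the counter treated overlaps was not given in the sources used here, and the split of counts between Atp8 and Atp6 is uncertain to that extent. Reads set aside as overlapping more than 1 gene, over all genes, numbered 767 to 1175 per library, against 4344 to 12260 counts of Atp8.

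**Figure D1:**
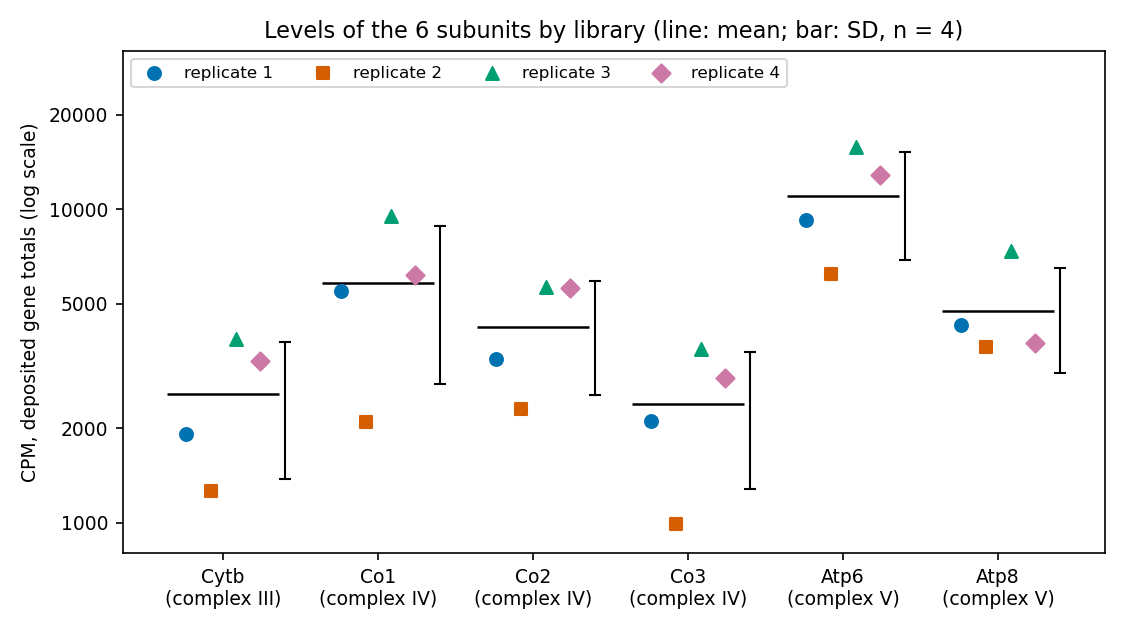
Level of each subunit in CPM (log axis) in the 4 libraries, with the mean as a line and the SD as a bar (n = 4). Replicate 3 is the highest library for all 6 subunits, and Atp8 in replicate 4 lies near replicate 2, unlike the others.

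The order of mean levels was Atp6, Co1, Atp8, Co2, Cytb, Co3. Subunits of the same library share its depth, so the order was examined within libraries. Of the 15 pairs of subunits, 11 had the same order in all 4 libraries. Atp6 was above every other subunit in each library, and Co1, Atp8 and Co2 were each above Cytb and Co3 in each library. An exact two-sided sign-flip permutation test over 4 libraries has 16 sign assignments, of which at least 2 are as extreme as the data, so no pair could pass 0.05.

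Between neighbours in the order, Atp6 exceeded Co1 by 1.03 ± 0.39 (log2 ratio, SD, n = 4), in 4 of 4 libraries. Co2 exceeded Cytb by 0.75 ± 0.14 (log2 ratio, SD, n = 4), also in 4 of 4 libraries. Both pairs reached the smallest p that this exact permutation test allows, as does any pair with the same order in 4 of 4 libraries. The remaining neighbours did not differ beyond their spread. The log2 ratio of Co1 to Atp8 was 0.16 ± 0.66, that of Atp8 to Co2 was 0.20 ± 0.54, and that of Cytb to Co3 was 0.12 ± 0.20, with exact permutation p-values of 0.75, 0.5 and 0.375 (SD, n = 4; 3 of 4 libraries each). The library that broke the order was replicate 2 for Co1 and Atp8, replicate 4 for Atp8 and Co2, and replicate 1 for Cytb and Co3.

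Summed over the 6 subunits, the share of gene counts was 2.63% in replicate 1, 1.65% in replicate 2, 4.57% in replicate 3 and 3.45% in replicate 4. The exact 95% Clopper-Pearson intervals of these shares ran from 2.61 to 2.66, 1.64 to 1.67, 4.54 to 4.599 and 3.42 to 3.49 percent. The mean was 3.08% ± 1.24 (SD, n = 4). None of the intervals overlapped, and replicate 3 had 2.76 times the share of replicate 2. The most abundant gene did not follow this order. It took 20.8%, 31.9%, 20.4% and 14.3% of counts in replicates 1 to 4. It thus gave 19.3 times as many counts as the 6 subunits together in replicate 2, and 4.15 to 7.91 times as many in the other libraries. With that gene left out of the totals, the share of the 6 was 3.33%, 2.43%, 5.74% and 4.03% in replicates 1 to 4, in the same order, and the highest was 2.36 times the lowest.

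All 6 subunits were highest in replicate 3, the highest library for 25.7% of the 7571 genes tested with TMM scaling and for 17.9% with deposited totals. Among the 121 genes with 4000 or more counts, a class that contains the 6, 38.8% were highest in replicate 3. Cytb, Co1, Co2, Co3 and Atp6 were also lowest in replicate 2 with TMM scaling, the lowest library for 26.7% of genes. Atp8 was lowest in replicate 4, at 3287 TMM-scaled CPM against 4087 in replicate 2. With deposited totals Atp8 and the other 5 were lowest in replicate 2, as were 38.6% of genes, so the library in which it was lowest depended on the scaling. Subunits of the same cells share their preparation and library, and their common direction is not a set of independent observations.

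Each of the 6 subunits varied between preparations by more than counting noise. The chi-square test on counts, with Benjamini-Hochberg adjustment over all genes, called 65.7% of the 7571 genes, so that most genes shared this call. With a minimum of 400 counts it called 85.2% of 2204 genes, and each of the 6 had 14090 counts or more in all. The −log10 of the adjusted p was 1884 for Co1, 1658 for Atp6 and 800.04 for Atp8, and from 566 to 595 for Co3, Cytb and Co2. These values grow with the number of counts and do not measure the size of the change. The test covers counting error only and cannot separate differences between cultures from those that arose in library preparation.

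The size of the change was measured as the fold range, the highest library over the lowest after TMM scaling. It was 4.23 for Co1, 3.38 for Co3, 2.86 for Cytb, 2.36 for Atp6, 2.35 for Atp8 and 2.29 for Co2. All 6 thus differed at least 2-fold, as did 48.3% of the 7571 tested genes and 42.1% of the 121 genes with 4000 or more counts. The median fold range was 2.61 for the 6 subunits, 1.96 for all tested genes and 1.91 for the 121 genes. Ordered by fold range among those 121 genes, Co1 stood at place 4, Co3 at 10, Cytb at 15, and Atp6, Atp8 and Co2 at 26, 28 and 34. The range of Co1 was 1.89 without replicate 2 and 2.29 without replicate 3, and that of Co3 was 1.86 without replicate 2. Without replicate 3 the range of Atp8 was 1.25.

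Set against the spread of genes of similar abundance, none of the 6 was called. With edgeR's quasi-likelihood dispersion compared with its robust trend, 13 of 6179 genes passed at an adjusted p under 0.05 (0.21%), and 0 of the 6 subunits did. Their edgeR adjusted p-values ran from 0.906 for Co1 to 0.995 for Atp6, Atp8 and Co2. At an unadjusted p under 0.05 the trend test called 358 genes (5.79%) and again 0 of the 6 subunits, of which Co1 came closest with an edgeR p of 0.0676. Without replicate 4 the unadjusted edgeR p was 0.0302 for Co1, 0.0320 for Co3 and 0.0479 for Cytb, and none passed after adjustment. The share of the 6557 genes tested without replicate 4 that lay under an unadjusted 0.05 was not determined. Without replicate 1, 2 or 3 no subunit was under 0.05. The lowest unadjusted edgeR p in those settings was 0.0884, for Co1 without replicate 1. The chi-square and the trend test ask different questions, and the trend was fitted to these same genes. The simulation of the trend test changed genes 8-fold, and smaller changes were not simulated for it. With fold ranges of 2.29 to 4.23, the lack of calls does not show that the 6 vary no more than such genes.

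**Figure D2:**
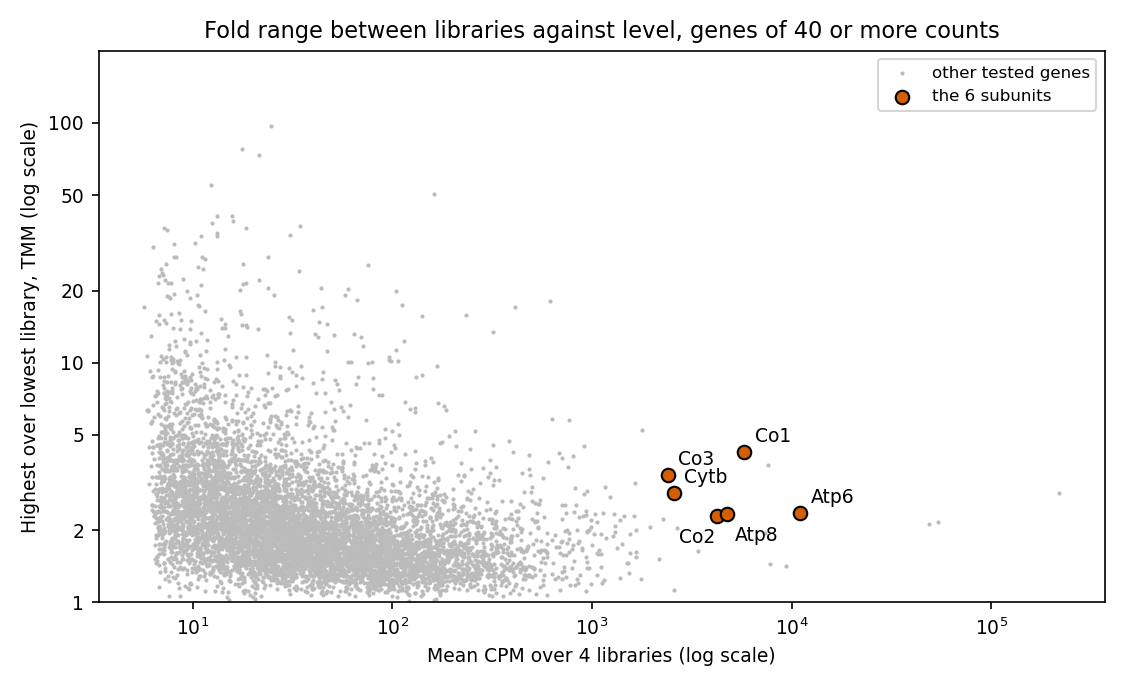
Fold range between the 4 libraries (highest over lowest, TMM-scaled, log axis) against mean CPM (log axis) for the tested genes, with the 6 subunits marked; 20 genes at 0 in a library are not drawn. The subunits lie between 2.29 and 4.23, with Co1 uppermost and Co2 lowest.

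Replicates 1 and 3 differed in level and hardly in composition. Replicate 3 was 1.73 times as high as replicate 1 for Co1, 1.697 for Co2, 1.71 for Co3, 1.702 for Atp6 and 1.72 for Atp8, with deposited totals. The counting intervals of these 5 ratios all overlapped, between 1.63 and 1.79. For Cytb the ratio was 2.02 (95% counting interval 1.93 to 2.11), above the other 5. At least 1.5 times the level of replicate 1 was reached by 13.9% of the tested genes in replicate 3 with this scaling, and by all 6 subunits.

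The other pairs of libraries were not related by a common factor. Replicate 4 was at 1.69 times the level of replicate 1 for Co2 and 1.71 times for Cytb, but at 1.12 times for Co1 and 0.876 times for Atp8. A ratio of 1.5 or more between replicates 4 and 1 was found for 27.1% of the tested genes and for 2 of the 6 subunits, Co2 and Cytb. Replicate 3 exceeded replicate 2 by 4.53 times for Co1, 3.62 for Co3, 3.06 for Cytb, 2.53 for Atp6, 2.45 for Co2 and 2.02 for Atp8. A ratio of 1.5 or more between these libraries was found for 26% of the tested genes and all 6 subunits. The intervals of Atp6 and Co2 overlapped, and those of Co1, Co3, Cytb and Atp8 overlapped with none.

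Shares among the 6 subunits do not depend on how libraries are scaled. Atp6 held 35.1%, 37.7%, 34.5% and 37.3% of the counts of the 6 in replicates 1 to 4 (mean 36.1% ± 1.59, SD, n = 4). It was the steadiest of the set, with an SD of 4.40% of the mean, against 37.7% for its level in CPM. Atp6 is also the largest part of the sum it is divided by, which narrows its range. The share of Cytb was 7.26%, 7.64%, 8.45% and 9.46% in the 4 libraries (mean 8.20% ± 0.976, SD, n = 4). It was lowest in replicate 1 and highest in replicate 4.

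Co1 and Atp8 had the widest spread of shares over the 4 libraries. Co1 held 20.8% of the counts in both replicate 1 and replicate 3, 17.8% in replicate 4 and 12.7% in replicate 2 (mean 18.0% ± 3.82, SD, n = 4). Atp8 held 16.2%, 22.0%, 16.1% and 10.8% in replicates 1 to 4 (mean 16.3% ± 4.55, SD, n = 4). Replicates 2 and 4 lay on opposite sides of replicates 1 and 3 for Atp8, with a highest share 2.03 times the lowest. Relative to the mean, its SD was 28.0% as a share and 36.8% as a level. For Atp8, taking shares thus removed only part of the spread. Co2 ranged from 12.4% in replicate 3 to 16.2% in replicate 4, and Co3 from 6.002% in replicate 2 to 8.397% in replicate 4.

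**Figure D3:**
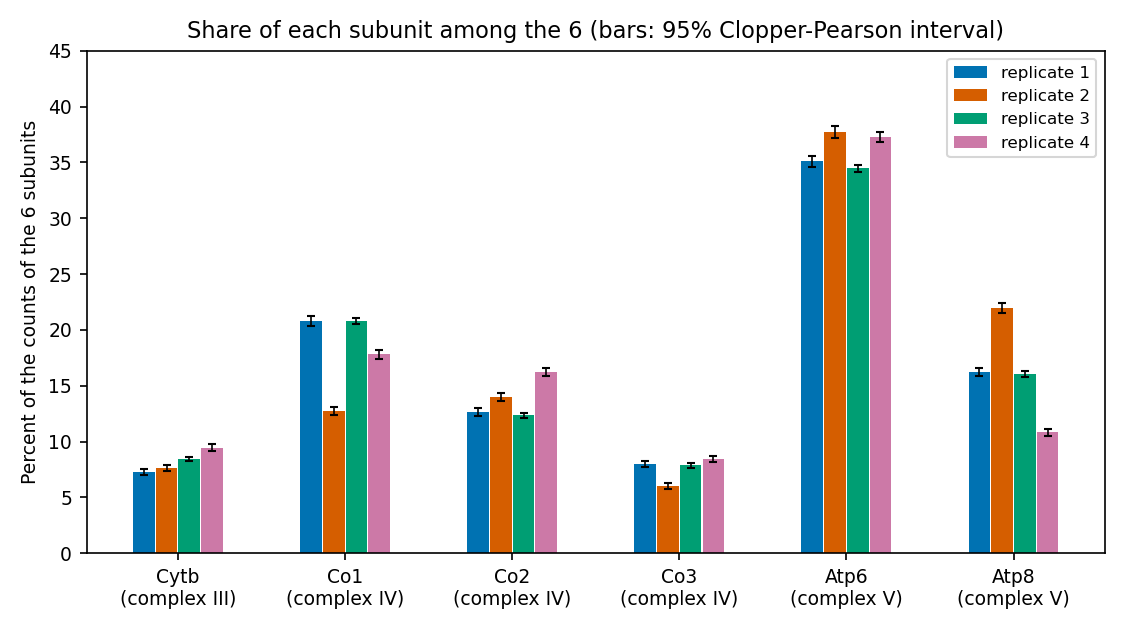
Share of each subunit in the summed counts of the 6, in percent, by library, with 95% Clopper-Pearson intervals for counting error. Replicates 1 and 3 nearly coincide for Co1 at 20.8% and for Atp8 near 16%, whereas replicate 2 is low for Co1 and high for Atp8.

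Between replicates 1 and 3 no share moved by more than 1.19 percentage points, the difference for Cytb. In every other pair of libraries at least 1 subunit moved by 5.23 points or more, up to 11.1 points for Atp8 between replicates 2 and 4. By complex, complex V held 52.4% ± 5.05 of the counts of the 6, complex IV 39.4% ± 4.52 and complex III 8.20% ± 0.976 (SD, n = 4). The complexes differ in the number of genes summed, and Atp6 and Atp8 of complex V lie on a shared mRNA. These are therefore shares of tags and not of transcripts. Complex V ranged from 48.1% in replicate 4 to 59.7% in replicate 2. Complex IV was at 32.7% in replicate 2 and between 41.0% and 42.4% in the other libraries.

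The subunits of complex IV enter the enzyme in equal numbers, and the tag counts of their genes were not equal. Whether a transcript of each gene gives the same number of tags was not tested. Co1 gave 2.603 times the counts of Co3 in replicate 1, 2.11 in replicate 2, 2.65 in replicate 3 and 2.12 in replicate 4. The highest value of this ratio was 1.25 times the lowest, a narrow range that still exceeded counting error. Its 95% counting intervals were 2.49 to 2.72 in replicate 1 and 2.57 to 2.73 in replicate 3. They were 2.00 to 2.23 in replicate 2 and 2.03 to 2.21 in replicate 4. The ratio of Co1 to Co2 was 1.65 in replicate 1 and 1.68 in replicate 3, but 1.096 in replicate 4 (95% counting interval 1.06 to 1.13) and 0.908 in replicate 2 (0.871 to 0.947). Co2 thus gave more counts than Co1 in replicate 2 and fewer in the other libraries. The ratio of Co2 to Co3 was 1.58, 2.33, 1.57 and 1.93 in replicates 1 to 4. Co1 and Co3 moved together more closely than either did with Co2, by the range of their ratios, and no test was made of that difference.

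In complex V, Atp6 exceeded Atp8 in every library. The ratio was 2.16 in replicate 1 (95% counting interval 2.096 to 2.23), 1.72 in replicate 2 (interval 1.67 to 1.77), 2.15 in replicate 3 (interval 2.0995 to 2.19) and 3.44 in replicate 4 (3.32 to 3.56). Replicates 1 and 3 agree within counting error, and replicates 2 and 4 lie on either side of them. The highest ratio was 2.004 times the lowest. The counts do not show whether tags counted for Atp8 came from ends of the shared mRNA or from other molecules.

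The most stable ratio of all 15 was between complexes. Atp6 gave 2.78, 2.699, 2.79 and 2.29 times the counts of Co2 in replicates 1 to 4, a highest value 1.22 times the lowest. The least stable was Co1 to Atp8, at 1.28, 0.577, 1.29 and 1.64, with a highest value 2.84 times the lowest, next to which stood Atp8 to Co3 at 2.838. Of the 15 ratios, 8 varied at least 1.5 times between libraries. Of these 8, 4 involved Atp8 without Co1 and 3 involved Co1 without Atp8.

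**Figure D4:**
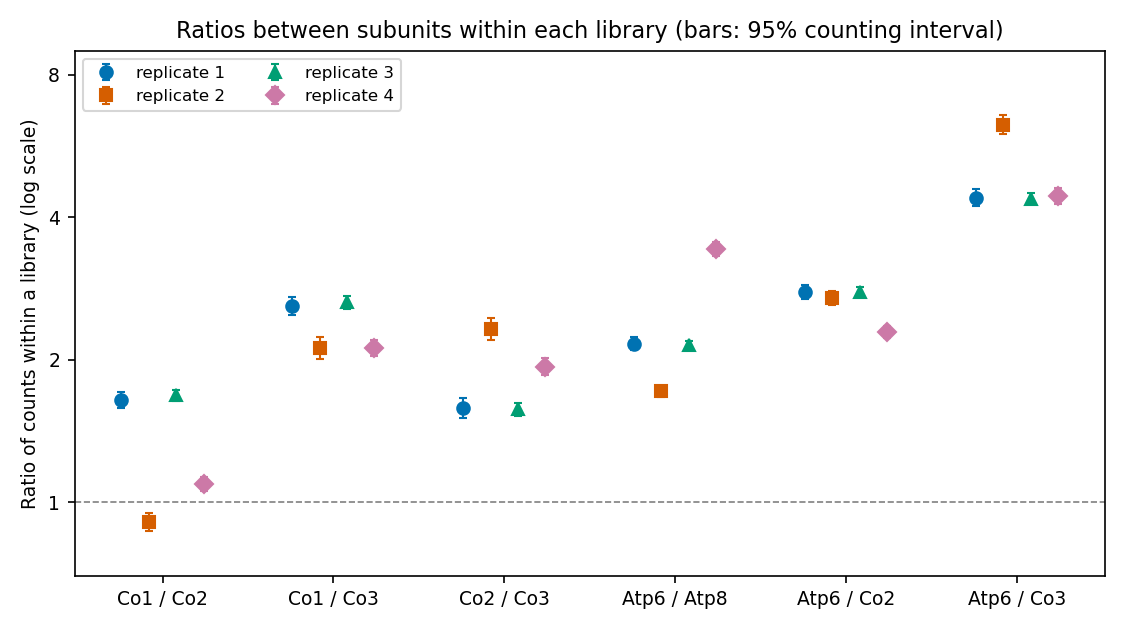
Ratio of counts between pairs of subunits within each library (log axis), with 95% counting intervals; the dashed line marks equal counts. Co1 / Co2 crosses the line in replicate 2, at 0.908, and Atp6 / Atp8 runs from 1.72 in replicate 2 to 3.44 in replicate 4.

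The pattern over the libraries was compared among the 5070 genes with a mean of 20 CPM or more and a count in every library, by the root mean square difference of log2 TMM-scaled levels after centring each gene. Over 4 libraries such distances only describe these samples. Cytb, Co2 and Atp6 were close to each other, at 0.12 to 0.14. Co1 was closest to Co3, at 0.16, and Atp8 was the most distant from the rest, at 0.36 from Atp6 and 0.47 to 0.57 from the others. None of the 6 had another subunit as its nearest gene. Seen from Atp6, Co2 stood at place 38 and Atp8 at place 881 among the other 5069 genes.

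The mean pattern of the 6 was -0.18 in replicate 1, -0.69 in replicate 2, 0.77 in replicate 3 and 0.10 in replicate 4 (log2 difference from a gene's own mean). The nearest genes outside the set were ENSRNOG00000022586.4, with a distance of 0.04, and ENSRNOG00000023344.3, with a distance of 0.06. The levels of ENSRNOG00000023344.3 were 490.5, 280.1, 768 and 622 CPM in replicates 1 to 4. ENSRNOG00000022586.4 was measured at 34.5, 20.5, 56.3 and 45.7 CPM. These levels rest on few counts, and the distance takes no account of counting error. The rank of this gene as nearest is therefore uncertain. Of the 6 subunits, Atp6 lay closest to the mean pattern, at 0.08, and Atp8 farthest from it, at 0.39, although each is a part of that mean.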

How the data were processed

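The authors deposited raw counts per gene for 4 libraries, whole numbers for 32754 Ensembl IDs and 5 summary lines. STAR, HTSeq and the build rn6 are named in the submitters' processing notes. The strand setting, the overlap mode of the counter, tool versions, molecular identifiers and the annotation release were not given in the sources used here. Counts are of uniquely aligned reads, so sequence shared with nuclear copies of mitochondrial DNA may be lost, and without the strand setting reads of the opposite strand cannot be told apart. Summary lines were left out of totals. Reads assigned to no gene were 34.4% to 38.3% of uniquely aligned reads.

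CPM used deposited gene totals. Variation between libraries was tested for genes with 40 or more counts by chi-square (3 degrees of freedom) against TMM sizes, with Benjamini-Hochberg adjustment over all genes at 0.05. A trend test used edgeR's quasi-likelihood dispersion. The software was edgeR 4.0.16 and DESeq2 1.42.0 under R 4.3.3. Intervals are at 95% and cover counting error only. On data simulated with counting noise alone, the chi-square test called 1 of 7527 unchanged genes. With some genes changed in 1 library, it called 73 of 100 changed 2-fold and 100 of 100 changed 4-fold. Beside them it called 16 of 7372 unchanged genes. These rates hold for counting noise and do not cover other differences between preparations. The trend test called 176 of 200 genes changed 8-fold in 1 library, against a spread of 30% set for every gene.

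The members and gene lists were chosen with earlier results of these data known. Named genes are the 6 members, the most abundant gene, and the 2 other genes nearest to the members' mean pattern. The reference table of 47357 genes (GRCr8) linked 0 of the IDs to symbols, so lists of nuclear-encoded subunits, complex I subunits, assembly factors and cell type markers, fixed by symbol, were not analysed here, nor were sequences. Alternatives were other scalings, count minimums, nulls and denominators, and leaving out each library.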

Additional observations from a re-analysis of the deposited data

Results flagged for a closer look

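Of 28 sets of 4 values, 1 value per library, 1 exceeded the 95% critical value of Dixon's test for a value apart from the rest. By chance about 1 set in 20 does so. It was the ratio of Atp6 to Co3, at 6.28 in replicate 2 and between 4.39 and 4.44 elsewhere, so that the gap took 0.973 of the range. The sets share counts and are not independent. The level of Atp8, with replicate 3 apart at 7339 CPM, came close with a gap of 0.827, as did the ratio of Atp6 to Co2, with replicate 4 apart at 2.29 and a gap of 0.820.

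Alignments that were not unique entered no gene count. Over all libraries there were 1.68 of them per uniquely aligned read; replicate 3 had the fewest (1.502) and replicate 1 the most (2.12). How many of them belong to the 6 subunits was not tested.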

How the results depend on the processing

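No paired analysis was possible because all libraries belong to 1 group. The number of genes varying between preparations, 4973, was 1877 of the 2204 genes tested (85.2%) with a minimum of 400 counts, 1149 of 7571 (15.2%) after dividing each chi-square by the inflation seen in low-count genes, and 13 of 6179 (0.21%) against the edgeR trend. Other scalings and a minimum of 10 counts called 56.9% to 68.9% of genes tested, and leaving out a library 51% to 59.4%. All 6 subunits stayed called under every alternative tried except that trend, which called 0 of the 6 at adjusted p under 0.05. With deposited totals the fold ranges were 3.06 for Cytb, 4.53 for Co1, 2.45 for Co2, 3.62 for Co3, 2.53 for Atp6 and 2.02 for Atp8. When the most abundant gene was left out of the totals, a setting chosen after seeing the data, they were 2.61, 3.87, 2.09, 3.09, 2.16 and 2.11 in the same order. Leaving out a library gave fold ranges of 2.02 to 2.89 for Cytb, 1.89 to 4.27 for Co1, 1.85 to 2.31 for Co2, 1.86 to 3.42 for Co3, 1.61 to 2.38 for Atp6 and 1.25 to 2.35 for Atp8. The summed share, 3.08%, was 1.97% of all uniquely aligned reads, 3.88% of gene counts without the most abundant gene (chosen after seeing the data), and 2.58% to 3.55% when a library was left out. Leaving out a library gave 11 to 13 pairs of constant order. The 20 genes nearest to the mean pattern were the same with deposited totals by construction, since scaling moves all genes alike. The alternative per kilobase of coding length was not run, since no lengths of these genes were at hand. Depth does not limit these genes, whose smallest count was 1983.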
